A study of Homo sapiens with 6 samples.

Results

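The genes described here are those of the angiotensin receptor, AGTR1, its binding partner, AGTRAP, and 4 others of the same system. These are AGT, the angiotensin precursor, the peptidases ACE and LNPEP, and the membrane protein ATP6AP2. Their members were the array probes whose gene symbol in the platform annotation is 1 of these 6. That gave 8 of the 47321 probes, for 5 of the 6 genes (20045 genes were named in all), since no probe carried the symbol LNPEP. AGTR1, AGTRAP and ACE had 2 probes each, and AGT and ATP6AP2 had 1. The genes were picked with the difference between the groups of this series already known. Their differences between inhibitor and vehicle are therefore given as a description, with standard errors but no p-value, and the tests concern other genes.

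RNA was measured on Illumina HumanHT-12 V4.0 beadchips, arrays of short oligonucleotide probes read in 1 colour. The samples, 3 in each group, are labelled as HCC1954, a HER2-positive breast cancer cell line, and were kept either with TBK1 inhibitor II, a small molecule that its name assigns to the kinase TBK1, or with vehicle only, both for 3 days. All 6 samples thus share 1 line and 1 time, and the labels used here give no genotype change, no dose and no name for the vehicle. Nothing in them says whether the 3 samples of a group were separate cultures. The SDs below therefore measure how far these samples lie apart, and part of that may be technical. The SEs are limma's moderated ones, which draw each probe's variance toward that of all fitted probes.

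The median signal intensity ranged from 110.7 to 130.7 on the inhibitor arrays and from 98.5 to 138.1 on the vehicle arrays, with vehicle replicate 1 lowest. Detected probes numbered 19676 to 20741 on inhibitor arrays and 18325 to 20127 on vehicle arrays, again fewest in vehicle replicate 1. For a check of the label, ERBB2 was detected on all 6 arrays but GRB7, its neighbour in the HER2 amplicon, on 0. Of 11 luminal epithelial markers 5 were detected on all 6 arrays, KRT8, KRT18, EPCAM, CDH1 and FOXA1, and 3 on none, KRT7, KRT19 and CLDN3. Of the 7 mesenchymal and neural markers 5 were detected on all 6 arrays, VIM, CDH2, NEFM, NEFL and SNAI2, while ZEB1 was detected on none and FN1 on at most 1 per probe. Mean normalized log2 levels in vehicle samples were 6.70 for KRT8, 6.53 for KRT18, 6.25 for EPCAM, 6.25 for CDH1 and 7.12 for FOXA1. They were 12.74 for VIM, 10.15 for CDH2, 11.14 for NEFM, 7.22 for NEFL and 10.42 for SNAI2. Of the basal epithelial markers EGFR was detected on all 6 arrays, ITGA6 on at most 4 per probe, and KRT5 and KRT14 on none. The undetected GRB7, KRT7 and KRT19 and the detected VIM, CDH2 and NEFM leave the label in doubt. The samples are therefore called by their label only. Of 6 markers of steroid-producing and smooth muscle cells, which are known for this receptor, ACTA2 was detected on all 6 arrays and 4 were detected on none. No marker passed the test between the groups (limma) in these lists or in the leukocyte and endothelial one, and CLDN4, FOXA1 and VIM had an unadjusted p under 0.05. Summed normalized log2 levels of these lists overlapped between the groups, except for the mesenchymal and neural list (60.02 to 60.56 in inhibitor samples, 60.62 to 61.47 in vehicle samples) and the leukocyte and endothelial list (30.05 to 30.49 in inhibitor samples, 29.34 to 29.81 in vehicle samples), with 5 of its 6 genes on the array undetected throughout. Their part in the differences below was not tested.

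Angiotensinogen, the product of AGT, is a secreted protein from which angiotensin I is cut. ACE, a zinc peptidase of the cell surface, shortens it to angiotensin II, which acts through the G protein-coupled AT1 receptor encoded by AGTR1. AGTRAP is a small membrane protein that binds the tail of this receptor and favours its internalisation. LNPEP is a membrane aminopeptidase that cleaves small peptide hormones such as oxytocin and binds angiotensin IV. ATP6AP2 is a membrane protein of the same system and an accessory subunit of the vacuolar proton pump. In breast cancers AGTR1 is known to be strongly expressed in a subset, chiefly of tumours without HER2 amplification.

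Promoter sequences were looked up for the 6 genes in a RefSeq table of assembly GRCh38.p14 that gives 250 bases before and 50 after each annotated start, and 5 of them, all but AGTR1, had an entry. Those of AGTRAP, whose probes differed in response, of ATP6AP2, the brightest member, and of AGT, the ligand gene, detected on 1 array, are shown 5′ to 3′ on the strand of the gene. Capitals mark matches to any of 7 motifs searched on both strands, and overlapping matches are merged. The AGTRAP sequence lies at chr1:11735886-11736185 (plus strand), that of ATP6AP2 at chrX:40580720-40581019 (plus strand) and that of AGT at chr1:230714073-230714372 (minus strand).
AGTRAP: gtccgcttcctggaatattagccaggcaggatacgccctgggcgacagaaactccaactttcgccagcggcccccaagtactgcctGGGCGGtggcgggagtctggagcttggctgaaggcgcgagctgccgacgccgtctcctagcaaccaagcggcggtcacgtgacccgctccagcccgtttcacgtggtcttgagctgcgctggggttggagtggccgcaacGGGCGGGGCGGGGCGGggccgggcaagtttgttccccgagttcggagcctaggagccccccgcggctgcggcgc
ATP6AP2: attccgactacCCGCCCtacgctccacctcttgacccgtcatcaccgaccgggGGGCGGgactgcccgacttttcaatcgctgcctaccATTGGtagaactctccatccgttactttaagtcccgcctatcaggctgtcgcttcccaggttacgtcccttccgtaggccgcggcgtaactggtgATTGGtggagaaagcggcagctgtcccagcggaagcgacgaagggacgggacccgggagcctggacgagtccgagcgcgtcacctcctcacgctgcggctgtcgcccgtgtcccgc
AGT: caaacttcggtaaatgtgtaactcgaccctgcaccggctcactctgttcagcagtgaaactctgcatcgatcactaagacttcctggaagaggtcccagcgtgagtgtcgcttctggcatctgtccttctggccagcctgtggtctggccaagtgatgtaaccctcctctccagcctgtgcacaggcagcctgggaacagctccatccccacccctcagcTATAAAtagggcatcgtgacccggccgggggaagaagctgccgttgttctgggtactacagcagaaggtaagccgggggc

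The motifs were the GC box (GGGCGG, in 45.0% of the 35116 promoters of the table), the CCAAT box (CCAAT, 34.6%), the TATA box (TATAAA, 11.5%), the AP-1 site (TGANTCA, 7.71%), the cAMP response element (TGACGTCA, 1.85%), the core of the interferon-stimulated response element (3.57%) and a 10-letter NF-kB site (1.91%). The last pair was included because TBK1 is known to act on IRF3 and NF-kB. AGTRAP held 4 GC boxes, 3 of them overlapping in a run that began 24 bases before the start, and no match to the other motifs. ATP6AP2 held 2 GC boxes and 2 CCAAT boxes in reverse orientation. AGT held a TATA box beginning 30 bases before the start and no GC box. GC content was 68.7% in AGTRAP, 63.7% in ATP6AP2 and 57.3% in AGT, against a median of 58.7% over all promoters, and the number of CpG dinucleotides was 31, 32 and 11 against a median of 14. Of the 2 entries of ACE, 1 held 4 GC boxes and a TATA box in reverse orientation, and ACE was not detected. No match to the interferon, NF-kB, AP-1 or cAMP motifs lay in any of the 7 entries of these genes, which says only that these letters are not in these windows. AGTR1 had no entry, so its promoter was not searched.

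Of the 8 probes 5 were kept for the fit, which needed a detection p-value under 0.05 on at least 3 of the 6 arrays. They were both AGTR1 probes, both AGTRAP probes and the ATP6AP2 probe, and each of them was detected on all 6 arrays, so none was kept through 1 group alone. Of these 5, 2 passed an adjusted p of 0.05 in the fit over all kept probes (limma, Benjamini-Hochberg), 1 higher and 1 lower with the inhibitor. Among all 19958 kept probes 3.83% passed, 2.41% higher and 1.43% lower. The same 2 probes were those whose normalized values did not overlap between the groups, as was true of 28.5% of all kept probes. Because the members were picked on this contrast, nothing is read from these shares. In bulk RNA, a change in the number of cells that carry a transcript and a change in its amount per cell cannot be told apart.

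**Figure D1:**
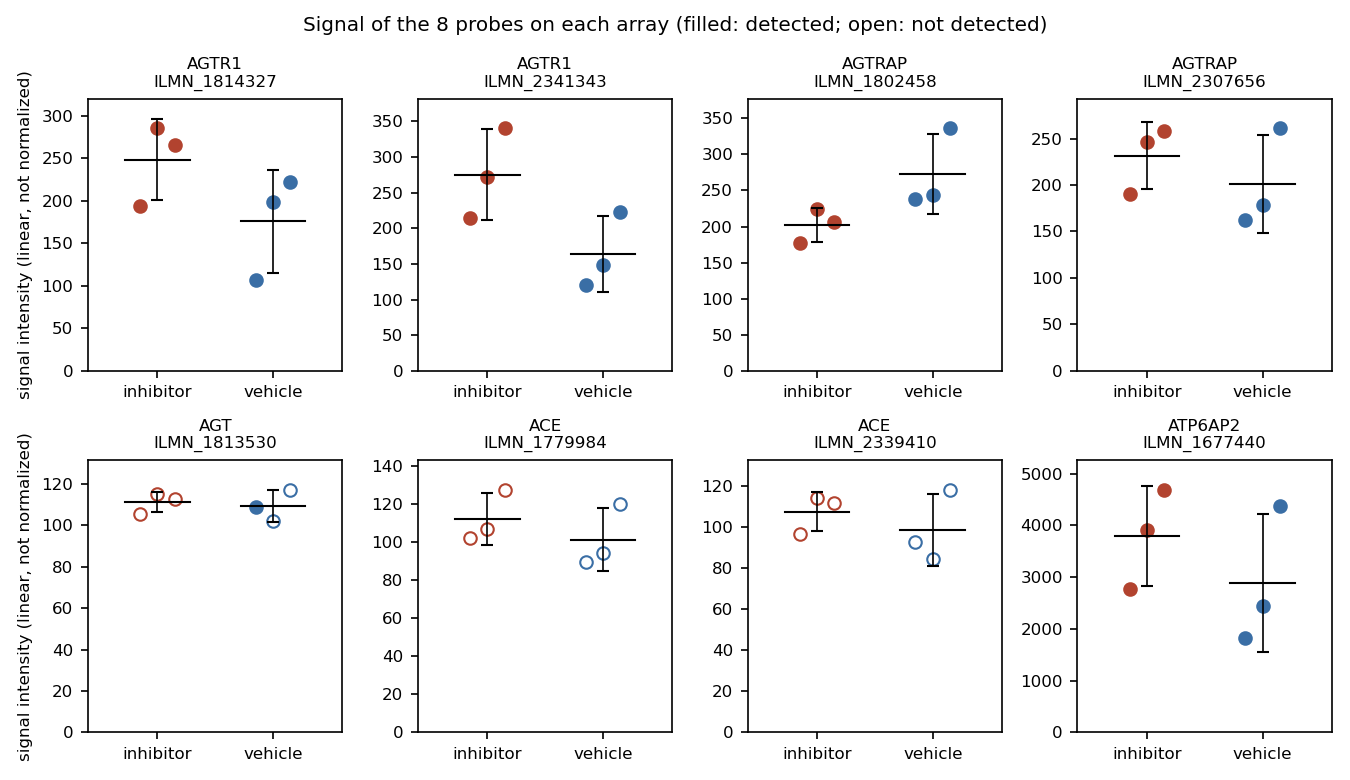
Signal intensity (linear, before normalization) of the 8 probes on each array, with inhibitor samples left of vehicle samples, a line at the mean and bars of 1 SD (n = 3 per group); each panel has its own axis from 0. Filled points were detected and open points were not, and the AGTRAP probe ILMN_1802458 is the only probe whose groups did not overlap before normalization.

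Transcripts of the receptor gene AGTR1 were detected in every sample. On probe ILMN_2341343 the signal intensity was 213.7, 271.9 and 340.5 in inhibitor replicates 1, 2 and 3, against 120.9, 148.4 and 222.7 in vehicle replicates 1, 2 and 3. Before normalization the groups overlapped, since inhibitor replicate 1 lay below vehicle replicate 3, which was the array with the highest median signal. After background correction and quantile normalization the log2 levels were 7.17, 7.27 and 7.50 in inhibitor samples and 5.95, 6.52 and 6.52 in vehicle samples. The groups no longer overlapped, and vehicle replicate 1 was lowest. The mean was 7.31 ± 0.17 in inhibitor samples and 6.33 ± 0.33 in vehicle samples (SD, n = 3 each), a log2 fold change of 0.98 ± 0.20 (SE), or 1.98-fold higher with the inhibitor. Among all kept probes 1.88% had a larger fold change in either direction. The authors' deposited processed values of this probe were 7.98, 8.04 and 8.17 in inhibitor samples and 7.47, 7.68 and 7.68 in vehicle samples, again without overlap. Their group difference was 0.46 ± 0.09. Over all probes the deposited differences had a slope of 0.505 on the background-corrected ones, so the sizes are not on 1 scale.

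The other AGTR1 probe, ILMN_1814327, gave a less certain picture because its vehicle values were spread. Its signal intensity was 194.3, 285.6 and 265.2 in inhibitor replicates 1, 2 and 3, against 107.0, 198.3 and 222.1 in vehicle replicates 1, 2 and 3. Vehicle replicate 1 was close to background, with a detection p-value of 0.0351, while the other 5 arrays had 0. Normalized log2 levels were 6.92, 7.38 and 6.95 in inhibitor samples and 5.27, 7.35 and 6.51 in vehicle samples. Vehicle replicate 2 lay as high as the inhibitor samples, so the groups overlapped. The SD was 0.26 in inhibitor samples and 1.05 in vehicle samples (n = 3 each). The log2 fold change was 0.71 ± 0.43 (limma's moderated SE, n = 3 per group) and did not pass. It was 0.15 ± 0.27 without vehicle replicate 1 and 1.21 ± 0.34 without vehicle replicate 2, so that the choice of vehicle samples decided its size. The annotation ties the probes to different RefSeq transcripts of AGTR1, and where on them they lie was not used here.

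The AGTR1 probes were therefore of 1 direction but not of 1 precision. Their normalized levels correlated with r = 0.722 over the 6 arrays, points that share the group difference and the array. The difference between them, ILMN_2341343 minus ILMN_1814327 on the log2 scale, was 0.25, -0.11 and 0.55 in inhibitor replicates 1, 2 and 3 and 0.68, -0.83 and 0.01 in vehicle replicates 1, 2 and 3. The groups overlapped widely, with vehicle replicates 1 and 2 at the extremes.

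AGTRAP, the receptor's binding partner, had 1 probe that was lower with the inhibitor and 1 that was alike in both groups. On ILMN_1802458 the signal intensity was 176.6, 223.7 and 206.8 in inhibitor replicates 1, 2 and 3, against 237.9, 243.8 and 336.5 in vehicle replicates 1, 2 and 3. All inhibitor values lay below all vehicle values even without normalization, although the inhibitor arrays were not the dimmer ones. Normalized log2 levels were 6.65, 6.83 and 6.34 in inhibitor samples and 7.90, 7.80 and 7.50 in vehicle samples. The mean was 6.61 ± 0.25 in inhibitor samples and 7.73 ± 0.21 in vehicle samples (SD, n = 3 each), a log2 fold change of -1.13 ± 0.19 (SE), so that inhibitor samples had 0.458 times the level of vehicle samples. Only 0.957% of kept probes had a larger fold change in either direction. The authors' deposited processed values were 7.73, 7.81 and 7.60 in inhibitor samples and 8.42, 8.36 and 8.17 in vehicle samples, and did not overlap either. Their group difference was -0.60 ± 0.10, on the scale of those values.

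On ILMN_2307656, the other AGTRAP probe, the signal intensity was 190.5, 246.0 and 258.0 in inhibitor replicates 1, 2 and 3, against 162.5, 178.8 and 261.3 in vehicle replicates 1, 2 and 3. Within each group these values ran in the order of the arrays' median signals. After normalization the log2 levels were 6.87, 7.06 and 6.89 in inhibitor samples and 7.0, 7.08 and 6.92 in vehicle samples, and the groups overlapped. The log2 fold change was -0.06 ± 0.15 (SE, n = 3 per group), and 85.9% of kept probes had a larger one in either direction. This probe varied least of the 5, with an SD of 0.10 in inhibitor samples and 0.08 in vehicle samples.

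The change between the groups differed between the AGTRAP probes. The level of ILMN_1802458 minus that of ILMN_2307656 was -0.22, -0.23 and -0.56 on the log2 scale in inhibitor replicates 1, 2 and 3 and 0.90, 0.72 and 0.57 in vehicle replicates 1, 2 and 3. The groups did not overlap. The sign of such a value has no meaning of its own, since levels of different probes are not comparable, and the gap between the groups restates the contrast of ILMN_1802458 on which the gene was picked. The mean difference was -0.33 ± 0.19 in inhibitor samples and 0.73 ± 0.16 in vehicle samples (SD, n = 3 each), and inhibitor minus vehicle was -1.07 on the log2 scale. A difference within an array does not depend on a shift common to both probes. The annotation ties each probe to a different RefSeq transcript of AGTRAP, while the promoter table holds a single start for the gene, the one printed above. Without the probes' own sequences it was not tested whether they report different transcripts.

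**Figure D2:**
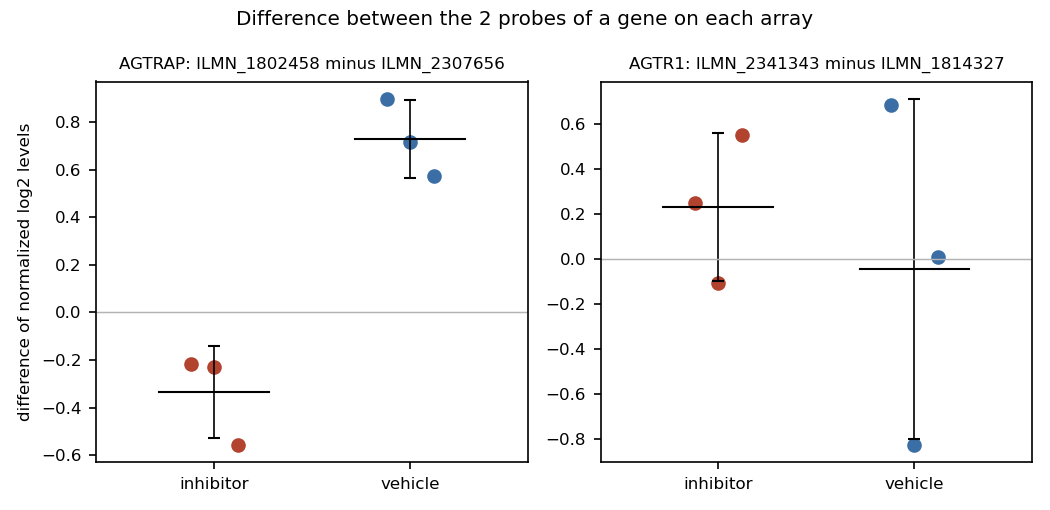
Difference of normalized log2 levels between the 2 probes of AGTRAP (left) and of AGTR1 (right) on each array, inhibitor samples left of vehicle samples, with a line at the mean and bars of 1 SD (n = 3 per group). For AGTRAP the inhibitor samples lie between -0.56 and -0.22 and the vehicle samples between 0.57 and 0.90, while for AGTR1 the groups overlap.

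ATP6AP2, the accessory pump subunit, was by far the brightest of the members. Its signal intensity was 2770, 3919 and 4691 in inhibitor replicates 1, 2 and 3, against 1828, 2451 and 4382 in vehicle replicates 1, 2 and 3. Normalized log2 levels were 11.63, 11.73 and 11.92 in inhibitor samples and 11.24, 11.57 and 11.66 in vehicle samples. The groups overlapped by a narrow margin, since inhibitor replicate 1 lay just below vehicle replicate 3. The log2 fold change was 0.27 ± 0.17 (SE, n = 3 per group) and did not pass, and 44.3% of kept probes had a larger one in either direction. Its value was close to this in the authors' deposited processed values (0.26 ± 0.12).

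The ligand precursor and the converting enzyme were at or near background. The AGT probe ILMN_1813530 had a signal intensity of 105.6, 115.1 and 112.5 in inhibitor replicates 1, 2 and 3, against 108.7, 102.0 and 117.2 in vehicle replicates 1, 2 and 3. It was detected on 0 inhibitor arrays and on 1 vehicle array, replicate 1, with a detection p-value of 0.0286. For ACE, probe ILMN_1779984 had 102.3, 106.9 and 127.8 in inhibitor samples and 89.8, 94.4 and 120.2 in vehicle samples, and probe ILMN_2339410 had 96.6, 114.1 and 111.6 in inhibitor samples and 92.9, 84.3 and 118.2 in vehicle samples. Neither ACE probe was detected on any array, with detection p-values of 0.161 to 0.948. No fold change is given for AGT or ACE, which did not meet the detection filter.

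The alternatives to the processing moved the sizes of the called members more than their directions. The AGTR1 probe ILMN_2341343 was higher with the inhibitor in all 15 alternatives and past the threshold in 8. Its values ran from 0.46, in the deposited values on their own scale, to 1.26 on the log2 scale. The AGTRAP probe ILMN_1802458 was lower in all 15, from -1.24 to -0.60, the latter in the deposited values, and past the threshold in 9. Leaving out 1 sample kept the AGTR1 value between 0.80 and 1.09 and the AGTRAP value between -1.24 and -0.99. AGTR1 then remained past the threshold only without vehicle replicate 2 (1.09), and not without vehicle replicate 1 (0.80) or 3 (1.06) or inhibitor replicate 1 (1.06), 2 (1.00) or 3 (0.88). AGTRAP passed without vehicle replicate 2 (-1.10) or 3 (-1.23), and not without vehicle replicate 1 (-1.04) or inhibitor replicate 1 (-1.16), 2 (-1.24) or 3 (-0.99). Without 1 inhibitor sample, 4 or 5 of all probes tested passed at all. With median centring in place of quantile normalization the median of all kept probes was 0.21, and against that shift AGTR1 was at 1.26 and 0.94 on its 2 probes, both past the threshold. The fit of that setting gave all probes 1 common error, 0.30. Under the same setting AGTRAP was at -0.83, not past it, and at 0.24 on the other probe, close to the shift, and ATP6AP2 was at 0.40. The split of all calls moved with it, to 891 higher of 942, against 480 higher of 765 with quantile normalization.

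**Figure D3:**
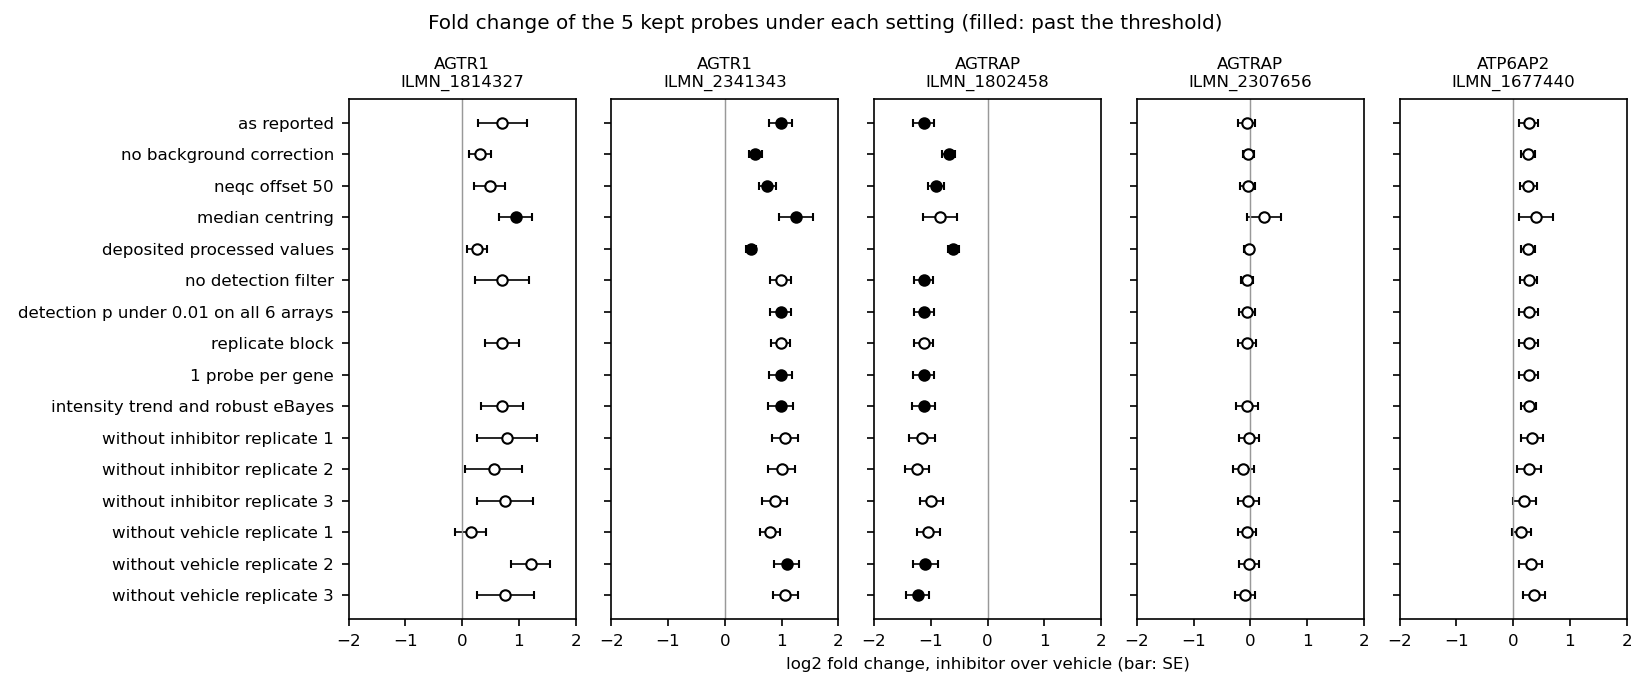
Log2 fold change, inhibitor over vehicle, of the 5 kept probes (bars: SE) with the processing as reported and under 15 alternatives, where a probe that the setting does not include has no point. The deposited values stand on their own log2-like scale. Filled points passed the threshold, and the values of ILMN_2341343 stay above 0 and those of ILMN_1802458 below 0 throughout.

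Genes of the same pathway outside the members were taken from 5 lists of textbook members, with 1 probe standing for a gene. Of the 59 measured genes in these lists 8 rose and 1 fell, or 6 and 1 of the 57 detected in both groups, where 4.39% of all 11582 measured genes passed, 2.94% higher and 1.45% lower. Of the 8 that rose, 5 were in the list of angiotensin II-induced genes, written with several of its differences already known. Nothing is therefore read from these counts against that share. The other genes of the angiotensin system were mostly at background. Of 16 on the array 9 were detected on none of the 6 arrays, among them the receptors AGTR2, MAS1 and MRGPRD and the aminopeptidase ANPEP. The 6 measured were all peptidases, none passed (0 also at an unadjusted p of 0.05, limma), and their median log2 fold change was -0.11, against 0.03 for all measured genes. It was 0.11 with median centring. The smallest p-values were those of THOP1, thimet oligopeptidase (-0.36 ± 0.17, SE, limma adjusted p = 0.242), and MME, neprilysin (0.46 ± 0.23, limma adjusted p = 0.277, detected on 2 of 3 vehicle arrays).

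In the list of AT1 receptor signalling, 23 of 27 genes on the array were measured, 2 rose, 1 fell and 20 did not pass. Both directions included G protein-coupled receptor kinases, which phosphorylate active receptors. GRK5 had a signal intensity of 494.7, 692.2 and 758.2 in inhibitor replicates 1, 2 and 3, against 259.3, 313.1 and 533.2 in vehicle replicates 1, 2 and 3, and its log2 fold change was 0.73 ± 0.16 (limma adjusted p = 0.0395). GRK6 had 312.3, 303.5 and 354.0 in inhibitor samples and 363.8, 370.4 and 571.0 in vehicle samples, and fell (-0.91 ± 0.18, adjusted p = 0.0346). The other kept probe of each had the same sign without passing, at 0.52 for GRK5 and -0.81 for GRK6. With median centring GRK6 was at -0.63 and did not pass (limma adjusted p = 0.233). With no detection filter it stayed at -0.91 and did not pass either (limma adjusted p = 0.0529). ITPR1, a calcium channel opened downstream of the receptor's G protein, rose by 0.83 ± 0.18 (adjusted p = 0.0403), and did not pass with no detection filter (adjusted p = 0.0635). The G protein genes GNAQ and GNA11, through which the receptor is known to signal, were at 0.20 ± 0.33 and 0.14 ± 0.19 and did not pass. The arrestin gene ARRB1 had 0.51 on its brightest probe and -0.55 and -0.43 on the others. ROCK2, at 0.56 on its brightest probe and -0.18 on the other, did not pass as reported but did in 5 alternatives. The list's median was -0.04, and 0.22 with median centring, close to the 0.21 of all kept probes in that setting.

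Of 11 measured genes known to be induced by angiotensin II in vascular or adrenal cells 5 rose and none fell, with a median of 1.03, or 0.67 with the undetected vehicle levels set at their bound. Several of them were known to differ in these data when the list was written, so the count is no independent evidence. They were CCL2, a monocyte chemokine (at least 4.77-fold higher, limma adjusted p = 0.000662), NR4A2, an orphan nuclear receptor (1.90 ± 0.19, adjusted p = 0.00671), CCN1, a matricellular protein (1.65 ± 0.23, adjusted p = 0.0174), SGK1, a kinase of sodium transport (1.03 ± 0.17, adjusted p = 0.0245), and FOS (at least 1.58-fold higher, adjusted p = 0.0425). CCL2 and FOS were detected on no vehicle array and on all 3 inhibitor arrays, so they met the detection filter only through the group where they were higher. Without them 3 of 9 genes of the list rose. FOS did not pass with the authors' deposited values (adjusted p = 0.0608) or with no detection filter (adjusted p = 0.0987). SGK1 had 2 other kept probes, at 0.99 and 0.64. CYP11B2, aldosterone synthase, and STAR, both adrenal genes of the list, were detected on 0 arrays, as were EDN1, TGFB1 and IL6. NR4A1 and NR4A3 were detected on at most 1 array per probe. EGR1 was at 0.24 ± 0.18 and MYC, the only measured gene below 0, at -0.08 ± 0.21, and neither passed. JUN (1.39) and HBEGF (0.67) did not pass as reported but did in 4 and 6 alternatives. The genes that rose also respond to many other stimuli.

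Among the partners of ATP6AP2 in the vacuolar proton pump, 1 of 14 measured subunits, ATP6V0A1, rose. No subunit fell, 13 were not called, and 11 had a value above 0. The list's median was 0.13 (0.37 with median centring, against 0.21 for all kept probes in that setting). This gene, which encodes a membrane subunit, had a signal intensity of 1448, 1877 and 2113 in inhibitor replicates 1, 2 and 3, against 733.4, 834.4 and 1504 in vehicle replicates 1, 2 and 3, with a log2 fold change of 0.68 ± 0.15 (limma adjusted p = 0.0403). It did not pass with median centring (0.87, adjusted p = 0.0608). With no background correction, with the authors' deposited values and with an intensity trend and robust variance 3 subunits passed. Called in 3 settings each were ATP6V0B and ATP6V1A, at 0.44 and 0.45 as reported. ATP6AP1, the other accessory subunit, was at 0.36 ± 0.17, near the 0.27 of ATP6AP2. Of the aminopeptidases of the family of LNPEP, 5 of 9 genes were measured and none passed, with 1 at an unadjusted p of 0.05 (limma). Their smallest p-values were those of ERAP2 (0.66 ± 0.26, adjusted p = 0.171), which trims peptides in the endoplasmic reticulum, and RNPEPL1 (-0.49 ± 0.28, adjusted p = 0.328). The other kept probe of ERAP2 was at -0.14. ERAP2 passed in 1 alternative, the intensity trend and robust variance. Without 1 inhibitor sample, whichever it was, 0 genes of the 5 lists passed (limma), where 12 to 17 had an unadjusted p under 0.05 and CCL2 and FOS no longer met the detection filter. Without 1 vehicle sample 4 passed each time. The 9 called genes kept their signs in the authors' deposited values, where FOS no longer passed. Their group differences were smaller on the scale of those values. They ran from 0.33 for ITPR1 to 1.41 for CCN1 among the higher ones, and GRK6 was at -0.63.

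**Figure D4:**
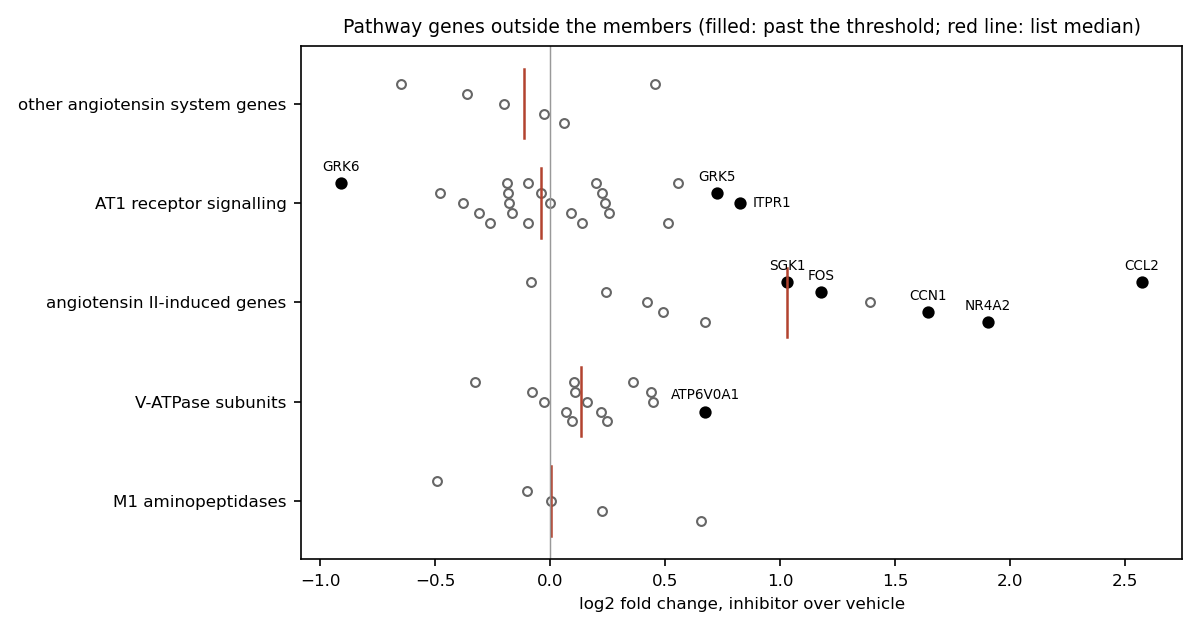
Log2 fold change, inhibitor over vehicle, of the measured genes of 5 lists that hold no member (1 point per gene, red line at the list's median; CCL2 and FOS, undetected in vehicle samples, stand at their fitted values). Filled points passed the threshold and are named: GRK6 lies below 0 and GRK5, ITPR1, ATP6V0A1 and 5 genes known to be induced by angiotensin II above it.

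The genes whose 6 normalized values were most like those of AGTR1 on ILMN_2341343 were MIR503HG (r = 0.999), GJC1 (r = 0.997), BUB1 (r = 0.995), SNORD103A (r = 0.995) and RBM15 (r = 0.993), among 11318 named genes compared. MIR503HG is a noncoding host transcript, and GJC1, a gap junction protein, had a log2 fold change of 0.71. The 6 points of each share 2 groups and the same arrays, and 782 genes (6.91%) had an r above 0.9, so likeness at this level was common.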

How the data were processed

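Signal intensities of 47321 probes with a detection p-value on each of 6 arrays were deposited as 1 table, not normalized between arrays, per the file headers and values. The deposited table of processed values is on a log2-like scale with column medians of 7.16 and no centring by gene. It ranks probes within each array as the signal does (Spearman rho 1), and its group differences follow those of quantile-normalized log2 signal without background correction (r = 0.996 across probes, slope 0.907). Neither its log base nor its exact transformation is given in the sources used here. The submitters' processing notes name lumi without a version.

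Signals were background-corrected with neqc (offset 16, control distribution taken from the detection p-values), quantile-normalized and put on the log2 scale with limma 3.58.1 in R 4.3.3. This widens fold changes of dim probes and removes a shift common to most genes. Probes whose detection p was below 0.05 on 3 or more arrays, 19958 in all, were fitted with lmFit and eBayes, inhibitor over vehicle without covariates, with Benjamini-Hochberg adjustment over all of them, with a threshold of 0.05. The steps were tested on simulated data. All adjusted p-values are from limma. Each SE is its moderated one, in which a probe's own variance is drawn toward that of all fitted probes. It can be smaller or larger than the spread of the probe's own samples would give. The number of arrays limits the precision.

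Gene names came from the platform annotation (30112 probes with 1 symbol, 8 with several, 17201 with none), updated by gene ID for 30073 probes from RefSeq genes of GRCh38.p14. In the lists the brightest kept probe stood for a gene. A gene detected on no array of 1 group has only a bound there: the mean of the other group over a mean that takes, per array, the lowest level of any detected probe or, if higher, that of the probe itself.

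The members, lists and naming rule were chosen with earlier results of these data known. All members were named. From each list the genes past the threshold, up to 6 by p, or the 2 with the smallest p, were named, and so were the 5 genes most correlated with AGTR1. Marker genes, GNAQ, GNA11, ARRB1, ROCK2, CYP11B2, STAR, ATP6AP1, ATP6V0B, ATP6V1A and the undetected receptors were named after their values were seen. So were EDN1, TGFB1, IL6, NR4A1, NR4A3, EGR1, MYC, JUN and HBEGF. Alternatives were background correction, normalization, the deposited values, the detection filter, 1 probe per gene, the variance model, the replicate number as a block, and each sample left out.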

Additional observations from a re-analysis of the deposited data

How the results depend on the processing

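Of all kept probes 765 passed as reported. The count was 1697 with no background correction, 1558 with an offset of 50, 1570 with the deposited processed values, 466 with no detection filter, 1239 with a detection p under 0.01 on all 6 arrays and 1641 with an intensity trend and robust variance, and 4 to 535 with 1 sample left out. Of the pathway genes 9 passed as reported, 14 with no background correction, 14 with the trend and robust variance, and 0 to 4 with 1 sample left out, with the 4 always among the 9. Of the member probes 2 passed as reported, 1 with no detection filter (AGTRAP) and 0 to 2 with 1 sample left out. With the replicate number as a block 66 of all probes, 2 pathway genes and 0 member probes passed (limma; 2 at an unadjusted p of 0.05). After normalization, deviations from the group means in samples of the same number correlated with r = -0.142, 0.0204 and 0.118. Before it, the arrays' median signal rose with the replicate number in both groups (110.7, 117.3 and 130.7 with inhibitor, 98.5, 101.7 and 138.1 with vehicle). The labels do not say whether samples of the same number were handled together. Whether the samples are paired therefore cannot be told, and the block fit is given as an alternative only. No called member changed sign in any alternative. The alternatives other than these left each count within 1.5 times the reported one. The causes of the moves were not tested. Fewer samples where 1 was left out and more probes without a filter are part of those settings, and their share was not tested either. The signal of AGT and ACE, at background on nearly all arrays, limits what can be said of them.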
